A study of Mus musculus with 12 samples.

Results

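Nascent RNA of mouse liver was compared between the light phase and the dark phase of the day, with 6 libraries on each side. The light phase held both replicates of ZT0, ZT4 and ZT8, and the dark phase both replicates of ZT12, ZT16 and ZT20, where zeitgeber time (ZT) counts the hours from lights on, and these 12 libraries are all the Nascent-Seq libraries of the series used here. Nascent-Seq sequences RNA that is still being transcribed, recovered from the chromatin of purified nuclei. All livers came from adult male wild-type C57BL/6 mice of 3 to 6 months kept in a cycle of 12 hr light and 12 hr dark, so strain, sex, age range and housing were shared by both phases. The phases were defined by the time of collection, and the age of the mice behind each library was not given. ZT0 and ZT12 lie at the changes of light, so the ZT12 animals had only reached the onset of darkness. The replicates belong to 2 independent series of 6 time points. Each phase held 2 libraries that were run in 2 lanes (ZT8 or ZT20) and 4 that were run in 1.

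A value is the signal over the exons of a gene symbol as the number of reads for each base pair of exon (rpbp), with all libraries brought to 1 read total. Strand was not used, so the signals of overlapping symbols cannot be told apart. Of the 21490 symbols, 6284 exceeded 6 rpbp in at least 1 library and were compared on log2(rpbp + 1). A gene was called separated when every library of one phase lay strictly above every library of the other. The comparison was also made after equalizing the library medians, that is, after subtracting from each library its median log2 deviation from the gene means.

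The liver runs a circadian clock in which BMAL1 (encoded by Arntl) pairs with CLOCK or NPAS2 and activates transcription of the Per, Cry, Nr1d1 and Dbp genes from E-box sequences. PER and CRY proteins repress this activity, and REV-ERB repressors (Nr1d1, Nr1d2) compete with ROR activators such as RORα (Rora) at shared elements. Mice feed mostly in the dark, and the liver alternates between storing and releasing fuel over the day. A division of the day into a light and a dark phase captures genes that stay high through one of them, and it averages out genes that rise and fall within each.

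On the deposited scale 56 of the 6284 symbols were separated (0.891%), with 41 higher in the light phase (0.652%) and 15 higher in the dark phase (0.239%). After equalizing the medians 80 symbols were separated (1.27%), of which 41 were higher in light and 39 in dark (0.621%). On both scales together 41 symbols at 39 loci were separated (0.652%), 26 higher in light (0.414%) and 15 in dark. The 15 dark genes of the deposited scale were separated on both scales, whereas 15 light genes were separated on the deposited scale only. The 41 symbols of both scales are described first.

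**Figure D1:**
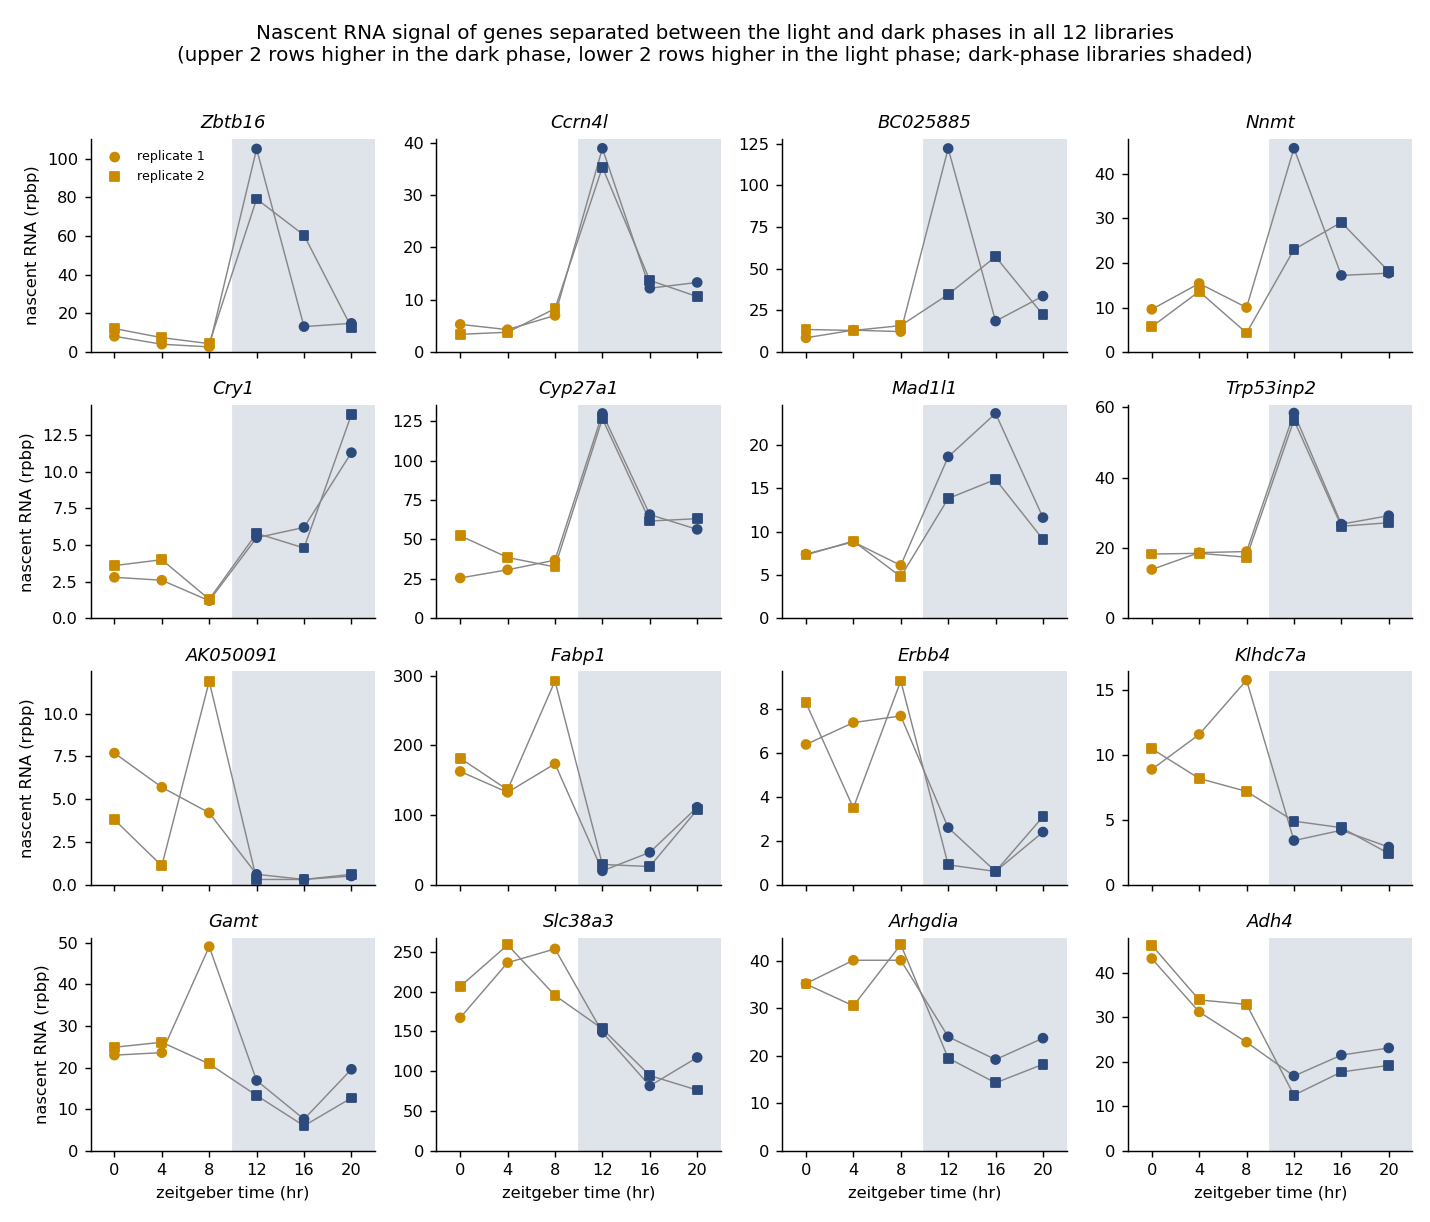
Nascent RNA signal (rpbp, linear axis from 0) against zeitgeber time for 16 separated genes, 8 with a large difference in each direction, taking 1 symbol per locus. Circles and squares are the libraries of replicate 1 and 2, grey lines join the libraries of a series, and the dark-phase libraries lie in the shaded area. Zbtb16, Ccrn4l and Cyp27a1 were highest at ZT12, Cry1 at ZT20 and Mad1l1 at ZT16, and Fabp1 lay between 132.4 and 292.3 rpbp in the light phase and between 19.7 and 111 in the dark phase.

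The promoters of 4 of these genes are shown because they are those with the largest difference in each direction that have an entry in RefSeq's promoter table, which was found for 31 of the 41 symbols. Each runs from 250 bases before the annotated start to 50 bases after it, 5′ to 3′ on the strand of the gene, in GRCm38.p6 coordinates, which differ from the mm9 coordinates of the deposited table. Capitals mark the motifs searched on both strands. Fabp1 (chr6:71199629-71199928, plus strand) holds TGACCTA, the reverse complement of the REV-ERB/ROR element TAGGTCA, 67 bases before the start and the TATA box TATAAA 30 bases before it. Cry1 (chr10:85185005-85185304, minus strand) holds the E-box CACGTG 60 bases before the start. Erbb4 (chr1:69108010-69108309, minus strand) and Ccrn4l (listed in RefSeq as Noct, chr3:51224197-51224496, plus strand) hold none of the 7 motifs searched.
Fabp1: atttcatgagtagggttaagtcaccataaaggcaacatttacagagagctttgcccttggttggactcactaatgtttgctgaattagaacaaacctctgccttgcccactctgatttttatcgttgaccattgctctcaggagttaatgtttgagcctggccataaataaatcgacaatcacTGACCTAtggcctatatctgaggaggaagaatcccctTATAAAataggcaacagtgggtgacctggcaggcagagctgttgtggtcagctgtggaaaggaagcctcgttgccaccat
Erbb4: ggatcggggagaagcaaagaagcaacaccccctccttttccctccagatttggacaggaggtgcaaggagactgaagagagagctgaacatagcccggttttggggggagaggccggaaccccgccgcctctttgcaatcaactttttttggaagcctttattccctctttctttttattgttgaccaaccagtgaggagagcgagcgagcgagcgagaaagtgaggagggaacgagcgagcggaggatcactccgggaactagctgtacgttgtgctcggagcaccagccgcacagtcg
Ccrn4l: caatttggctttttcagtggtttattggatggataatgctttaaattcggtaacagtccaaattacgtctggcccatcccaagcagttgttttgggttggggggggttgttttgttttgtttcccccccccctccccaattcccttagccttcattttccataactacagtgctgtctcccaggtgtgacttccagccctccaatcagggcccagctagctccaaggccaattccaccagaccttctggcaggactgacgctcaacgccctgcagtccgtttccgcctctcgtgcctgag
Cry1: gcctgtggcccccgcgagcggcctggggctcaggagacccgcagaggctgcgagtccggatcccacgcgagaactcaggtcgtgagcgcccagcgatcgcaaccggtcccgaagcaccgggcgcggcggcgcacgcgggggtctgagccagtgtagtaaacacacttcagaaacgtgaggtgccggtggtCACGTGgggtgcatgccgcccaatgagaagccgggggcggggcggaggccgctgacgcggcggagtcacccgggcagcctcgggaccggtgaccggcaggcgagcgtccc
CACGTG was present for 2 of the 8 dark genes with an entry (Cry1 and Mad1l1) and for 3 of the 23 light genes (Fgfrl1, Scaper and Zfyve26), against 8.09% of the 27025 genes in the table. TAGGTCA was present for 2 light genes (Fabp1 and Adh4) and 1 dark gene (Ehd3), against 2.97% of genes. The cAMP response element TGACGTCA was present for Trp53inp2 alone among the 31 (2.03% of genes), and TATAAA for Fabp1 and 1110018G07Rik (15.7% of genes). The D-box TTANGTAA, the heat shock element and the glucocorticoid response element were found in none of the 31, against 2.72%, 0.662% and 0.0555% of genes. These counts are a description of 1 window per start and were not tested.

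Cry1, which encodes a repressor of BMAL1 and CLOCK, was a core clock gene among those separated. Its lowest, median and highest values over the 6 libraries of a phase were 1.2, 2.7 and 4 rpbp in light and 4.8, 6 and 13.9 rpbp in dark, and values below that come as 3 per phase are given in the same order (chr10:84594445-84647799, minus strand). The phases did not overlap, and the 2 highest values were those of ZT20 (11.3 and 13.9 rpbp). The difference was −1.29 ± 0.28 (adjusted p = 0.0939). Ccrn4l, the gene of the deadenylase-related enzyme nocturnin, lay at 3.4, 4.8 and 8.3 rpbp in light and 10.6, 13.5 and 38.9 rpbp in dark (chr3:51028369-51055495, plus strand). Its ZT12 libraries, at 38.9 and 35.3 rpbp, stood above all others, and the difference was −1.63 ± 0.32 (adjusted p = 0.082). The adjacent gene Elf2, 4092 bases away, differed by −0.09 (adjusted p = 0.788).

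Zbtb16, which encodes the zinc-finger transcription factor PLZF, had the largest difference among the separated genes. It lay at 2.7, 5.95 and 12.2 rpbp in light and at 12.8, 37.7 and 105.1 rpbp in dark (chr9:48462402-48644327, minus strand), a dark mean 7.31-fold the light mean. The phases were kept apart by 0.6 rpbp only, and the dark libraries differed widely among themselves, with 13.2 and 60.5 rpbp in the 2 replicates of ZT16. The difference was −2.32 ± 0.54 (adjusted p = 0.111). Nnmt, the next tested gene on the chromosome at a distance of 49220 bases, encodes nicotinamide N-methyltransferase, which consumes nicotinamide and methyl groups. It lay at 4.3, 9.8 and 15.4 rpbp in light and 17.2, 20.55 and 45.7 rpbp in dark (−1.30 ± 0.30, adjusted p = 0.111), and like Zbtb16 it was separated on both scales.

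Enzymes of sterol and one-carbon metabolism were also among the dark genes. Cyp27a1, the sterol 27-hydroxylase of bile acid synthesis, lay at 25.6, 34.75 and 52.4 rpbp in light and 56.4, 64.5 and 129.9 rpbp in dark (chr1:74760148-74784464, plus strand). Both ZT12 libraries (129.9 and 126.6 rpbp) lay well above the other dark libraries, of which the highest was 65.8 rpbp. The difference was −1.14 ± 0.24, with an adjusted p of 0.0911 on the deposited scale and 0.049 after equalizing the medians. The adjacent gene Prkag3, 1609 bases away, had medians of 0.95 rpbp in light and 2.65 rpbp in dark. It differed in the same direction, by −0.90 (adjusted p = 0.285), and was not separated. Dmgdh, the mitochondrial dimethylglycine dehydrogenase of choline breakdown, lay at 16.1, 19.8 and 22 rpbp in light and 22.4, 36.75 and 57.9 rpbp in dark (−0.91 ± 0.21, adjusted p = 0.111). It lies 134 bases from Bhmt2 and 36678 bases from Bhmt, which encodes the betaine-homocysteine methyltransferase that forms dimethylglycine. Bhmt differed by −1.66 (adjusted p = 0.149) and Bhmt2 by −0.48 (adjusted p = 0.377), and neither was separated.

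The other dark genes differed by less or are less certain. Mad1l1, a spindle checkpoint gene, lay between 4.8 and 8.9 rpbp in light and between 9.1 and 23.6 rpbp in dark (−0.97 ± 0.21, adjusted p = 0.0982), a margin of 0.2 rpbp. The overlapping symbol Mad1 lay between 4.3 and 11.5 rpbp in light and between 10.4 and 30 rpbp in dark. Mad1 was separated on neither scale. Trp53inp2, which acts in autophagy, lay between 13.9 and 19 rpbp in light and between 26.2 and 58.4 rpbp in dark (−0.96 ± 0.22, adjusted p = 0.104). Vps37b of the ESCRT-I complex, the lysine methyltransferase gene Smyd2 and the endocytic recycling gene Ehd3 differed by −0.75, −0.58 and −0.54 (adjusted p = 0.217, 0.171 and 0.111). Hip1r, 1441 bases from Vps37b, differed in the same direction as Vps37b, by −0.84 (adjusted p = 0.276), and was not separated. Whether signal ran from 1 gene into an adjacent gene was not tested. Ehd3 is also on the list of sinusoidal endothelial markers described below. BC025885, a short symbol within the span of Sfi1, lay between 8.6 and 15.9 rpbp in light and between 18.6 and 122.1 rpbp in dark (−1.56 ± 0.36, adjusted p = 0.111), and the highest value came from ZT12 replicate 1, with 34.6 rpbp in the other ZT12 library and 57.2 rpbp in ZT16 replicate 2. Sfi1 itself differed by −0.55 (adjusted p = 0.185) and was not separated. The GC-corrected values separated 12 of the 15 dark symbols, and BC025885 and Smyd2 were not among them.

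Among the separated genes higher in light, Fabp1 had the largest difference of any well-expressed gene. It encodes the liver fatty acid-binding protein, which carries fatty acids through the cytoplasm. Its lowest, median and highest values were 132.4, 167.9 and 292.3 rpbp in light and 19.7, 37.55 and 111 rpbp in dark (chr6:71149882-71155017, plus strand). No dark library reached the light range, although both ZT20 libraries (111 and 107.4 rpbp) lay well above those of ZT12 and ZT16, which stood between 19.7 and 46.2 rpbp. The light mean was 3.18-fold the dark mean and the difference 1.92 ± 0.40 (adjusted p = 0.0911). More genes of hepatocyte metabolism followed. Slc38a3, a sodium-coupled glutamine transporter, lay at 167.1, 221.35 and 258.6 rpbp in light and 76.3, 105.85 and 153.2 rpbp in dark (1.00 ± 0.19), with an adjusted p of 0.0731 on the deposited scale and 0.049 after equalizing. Its neighbour Gnat1, 5483 bases away, differed in the same direction, by 0.91 (adjusted p = 0.104), and was not separated. Gamt, which catalyses the last step of creatine synthesis, lay at 20.9, 24.25 and 49.1 rpbp in light and 6, 13 and 19.6 rpbp in dark (1.12 ± 0.27, adjusted p = 0.126). Adh4, an alcohol dehydrogenase that also acts on retinol, lay at 24.4, 33.4 and 46.2 rpbp in light and 12.5, 18.45 and 23.1 rpbp in dark (0.89 ± 0.18, adjusted p = 0.082). Adh4 was no longer separated after the GC correction, and its neighbour Adh5 differed by 0.13 (adjusted p = 0.731).

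The 5 light genes that passed the limma test were Erbb4, Arhgdia, Mltk, Klhdc7a and AK050091. Erbb4, a receptor tyrosine kinase for neuregulins, lay at 3.5, 7.55 and 9.3 rpbp in light and 0.6, 1.65 and 3.1 rpbp in dark (chr1:68086540-69154633, minus strand), a difference of 1.65 ± 0.28 (adjusted p = 0.0311). Arhgdia, a GDP dissociation inhibitor of small GTPases, lay at 30.5, 37.65 and 43.4 rpbp in light and 14.3, 19.35 and 24 rpbp in dark (chr11:120438549-120442916, minus strand), a difference of 0.89 ± 0.14 (adjusted p = 0.0303). Its light values stood 6.5 rpbp clear of the dark ones, and P4hb, 4299 bases away, differed by 0.18 (adjusted p = 0.857). Mltk, a mixed-lineage kinase, lay between 5.8 and 7.5 rpbp in light and between 2.8 and 4.4 rpbp in dark (0.81 ± 0.12, adjusted p = 0.026). Klhdc7a, a kelch-domain gene, lay at 7.2, 9.7 and 15.8 rpbp in light and 2.4, 3.8 and 4.9 rpbp in dark (1.26 ± 0.19, adjusted p = 0.026). The clone AK050091 (chr5:91686597-91712102) was near the floor in dark, between 0.3 and 0.6 rpbp, and lay between 1.1 and 11.9 rpbp in light (2.03 ± 0.33, adjusted p = 0.0303). Values are rounded to 1 decimal, so its dark values are coarse and its fold change is poorly known.

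The remaining light genes were of low to moderate signal. Ppfibp1, which encodes liprin beta 1, differed by 0.84 and Dcun1d4, of the neddylation machinery, by 0.72, and both had an adjusted p of 0.049 after equalizing the medians (0.0634 and 0.0895 before). Fgfrl1, a receptor of the FGF family, 5033411D12Rik (listed in RefSeq as Sugct), Scaper and the exocyst gene Exoc4 differed by 0.75, 0.72, 0.64 and 0.64 (adjusted p from 0.082 to 0.168). Fgfrl1 and Exoc4 were no longer separated after the GC correction. Another 11 symbols were separated with differences from 0.25 to 0.61, among them Rabgap1l, Zfyve26, Dock4, Sucla1, Anks4b, Arv1, Rab1b and Hnrnpc. Of the 11, Sucla1, P2P-R and mKIAA0370 are listed in RefSeq as Suclg1, Rbbp6 and Xpo6. The overlapping symbols of those names were not separated on the deposited scale. The smallest margins among the 41 symbols were 0.1 rpbp, in mKIAA0370 and 1110018G07Rik, and just outside the rule on the deposited scale Psma4, Slc23a2 and Arl8b had equal values at the edge of both phases.

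**Figure D2:**
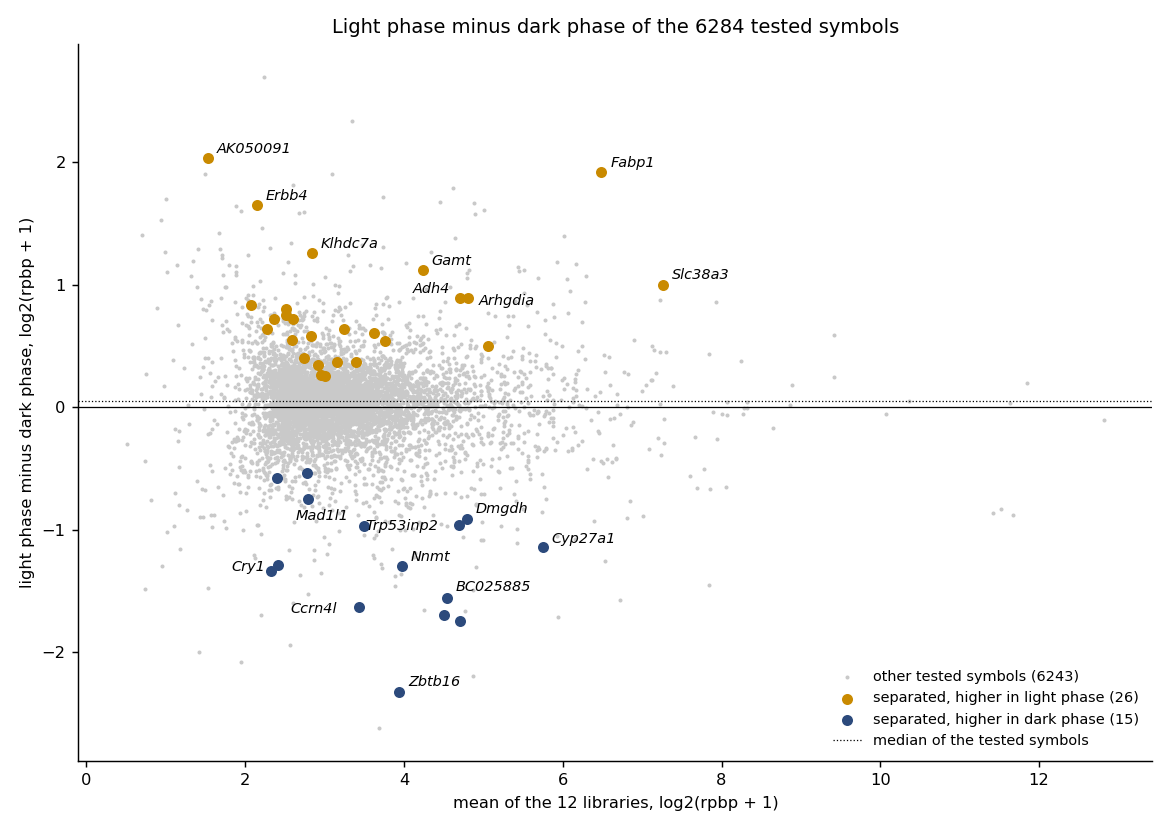
Light phase minus dark phase (log2(rpbp + 1), vertical axis) against the mean over the 12 libraries (horizontal axis) for the 6284 tested symbols, with the 26 light and 15 dark symbols separated on both scales in colour and the median of the tested symbols (0.05) as a dotted line. Fabp1 and Slc38a3 are the separated symbols with the highest means, and some symbols with large differences, in grey, were not separated.

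The light genes tended to share their time of lowest signal and the dark genes their time of highest signal. Of the 26 light genes, 14 were highest at ZT8, 9 at ZT4 and 3 at ZT0, and 21 were lowest at ZT16. Of the 15 dark genes, 10 were highest at ZT12, 4 at ZT16 and 1, Cry1, at ZT20. The shared low at ZT16 moved with the level of a library: ZT16 replicate 2 had the lowest median log2 deviation of all libraries (−0.20), and after equalizing the medians 9 of the 26 light genes were lowest at ZT16, 12 at ZT12 and 5 at ZT20. The peak of the dark genes moved less, with 9 highest at ZT12, 5 at ZT16 and 1 at ZT20 after equalizing.

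When all symbols were tested together, few differences passed. The limma fit with the 6 libraries of each phase as replicates called 9 symbols (0.143% of 6284) at an adjusted p under 0.05, 5 higher in light (0.0796%: Arhgdia, Mltk, Klhdc7a, Erbb4 and AK050091) and 4 higher in dark (0.0637%), which lie at 1 locus. At an unadjusted p under 0.05 there were 806 symbols (12.8%), 488 higher in light (7.77%) and 318 in dark (5.06%). Equalizing the medians gave 13 calls (0.207%), the same 9 with Cyp27a1, Slc38a3, Ppfibp1 and Dcun1d4, or 8 in light (0.127%) and 5 in dark (0.0796%). The calls were sensitive to the number and choice of libraries: without ZT0 replicate 1, ZT0 replicate 2, ZT4 replicate 1, ZT12 replicate 1 or ZT16 replicate 1 the limma fit called 0 symbols, with 883, 692, 665, 657 and 647 at an unadjusted p under 0.05, and without ZT20 replicate 1 or ZT4 replicate 2 it called 22. The differences themselves stayed of similar size when any 1 library was left out, between 0.77 and 0.87 for Mltk, 0.81 and 0.95 for Arhgdia, and 1.14 and 1.35 for Klhdc7a. Over all tested symbols 58.2% were higher in light on the deposited scale and 50.1% after equalizing, with a median difference of 0.05 and 0.00. This test counts the differences between ZT0, ZT4 and ZT8, and between ZT12, ZT16 and ZT20, as error. Separation and this test use the same values, so one is not evidence for the other.

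The same differences were tested against the spread between replicates of a time point, by fitting the 6 time points as groups. This fit called 263 symbols (4.19%), 149 higher in light (2.37%) and 114 higher in dark (1.81%). After equalizing the medians it called 281 (4.47%), 115 higher in light (1.83%) and 166 in dark (2.64%), and 223 symbols were called on both scales. So more calls were higher in light on the deposited scale and more were higher in dark after equalizing. Among the 41 separated symbols, 32 were called in this fit. Passing it says that the mean of a phase differed by more than replicates do, and not that a gene was steadily high through the phase.

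Whether a gene differed alike at each hour was tested by comparing the 3 pairs of time points that lie 12 hr apart (ZT0 with ZT12, ZT4 with ZT16 and ZT8 with ZT20). The pairs differed from each other for 237 symbols (3.77%, limma F-test with 2 df, adjusted p under 0.05) and for 231 after equalizing (3.68%). Among the separated genes, the pairs differed for Ccrn4l (adjusted p = 0.0102), Cry1 (adjusted p = 0.0119) and Trp53inp2 (adjusted p = 0.0357), 3 of the 5 separated symbols for which this test passed. Ccrn4l differed by −2.85 between ZT0 and ZT12 and by −0.58 between ZT8 and ZT20. Cry1 showed the opposite order, with −0.67 at ZT0 and ZT12 and −2.59 at ZT8 and ZT20. For Mltk the 3 differences were 0.91, 0.74 and 0.77, and for Mad1l1 −1.03, −1.05 and −0.81, and no difference between the pairs was detected (adjusted p = 0.924 and 0.881). Over all tested symbols the median of ZT4 minus ZT16 was 0.20, against −0.03 for ZT0 minus ZT12 and 0.00 for ZT8 minus ZT20.

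**Figure D3:**
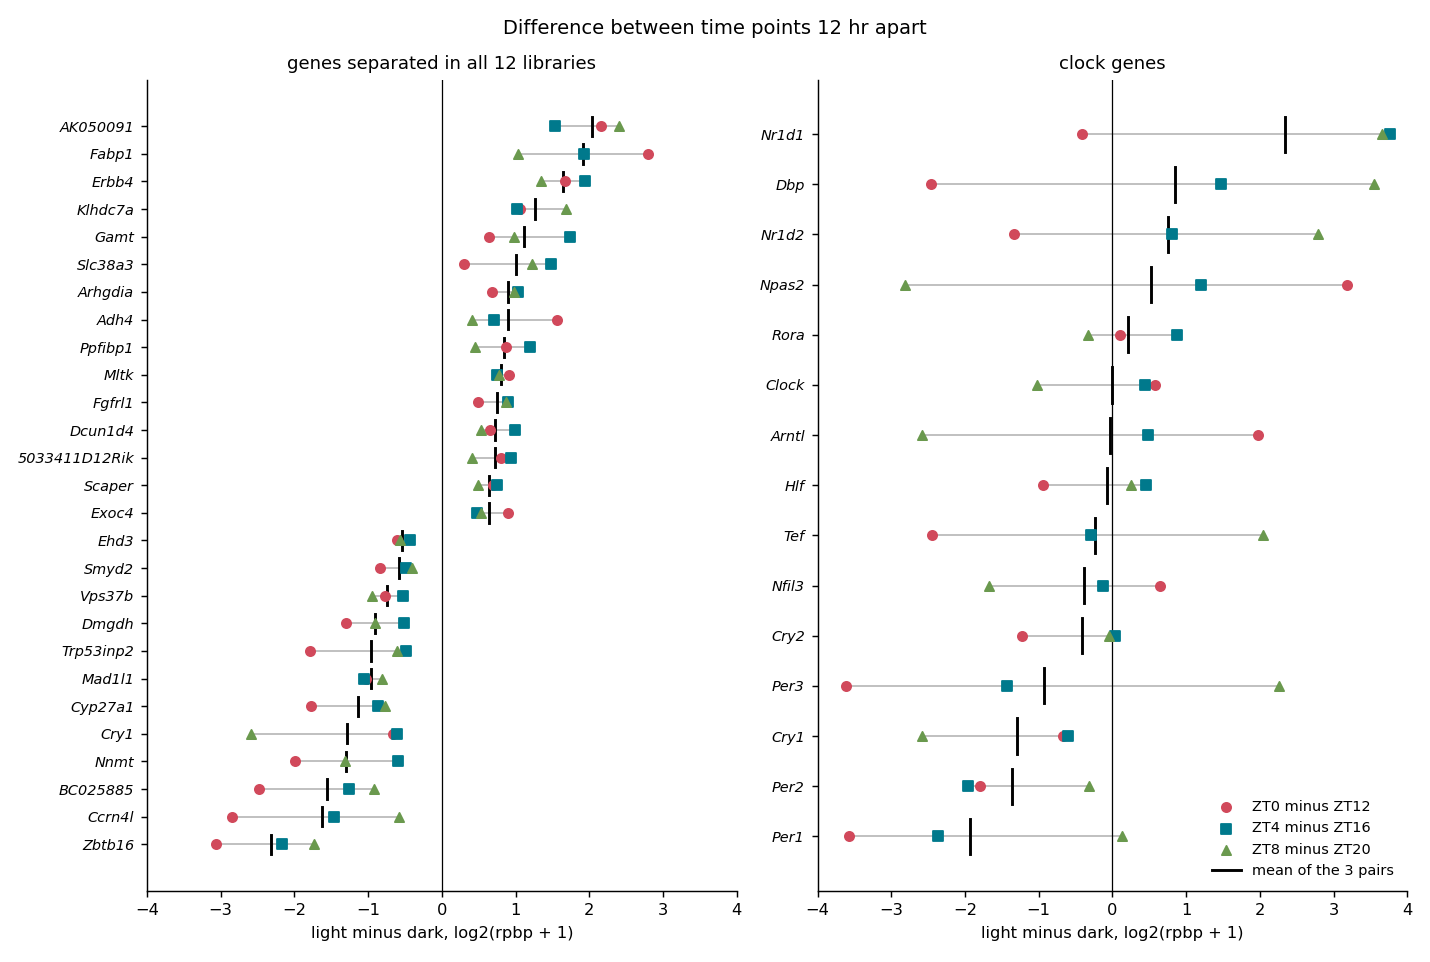
Light minus dark (log2(rpbp + 1)) for the 3 pairs of time points 12 hr apart, for the separated genes named in the text (left) and for clock genes (right). Circles, squares and triangles are ZT0 minus ZT12, ZT4 minus ZT16 and ZT8 minus ZT20, each from the means of 2 libraries per time point, and black bars are their mean. The 3 differences of each separated gene lie on 1 side of 0, which the rule of separation requires. Those of Dbp, Npas2, Arntl, Tef and Per3 lie on both sides.

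Most core clock genes were split by this pattern, so that a comparison of phases showed little of their amplitude. The activators Arntl, Clock and Npas2 differed by −0.04, 0.00 and 0.52 between the phases (adjusted p = 0.981, 0.999 and 0.796). Arntl differed by 1.98 between ZT0 and ZT12 and by −2.58 between ZT8 and ZT20, and the pairs differed (adjusted p = 0.00487). Its light libraries ran from 0.7 to 10.1 rpbp and its dark libraries from 1.3 to 10.4 rpbp, nearly the same range. The pairs also differed for Clock and Npas2 (adjusted p = 0.0243 and 0.00179).

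The repressor genes Per1, Per2, Per3, Cry1 and Cry2 had a lower light mean in every case, with a median difference of −1.29. None passed the limma test of the phases (adjusted p from 0.082 to 0.612). With time points as groups Per1, Per2 and Cry1 were called (adjusted p = 0.000818, 0.00839 and 0.000818). Per2 lay at 4.4, 9.25 and 14.9 rpbp in light and 13.1, 24 and 35 rpbp in dark (−1.36 ± 0.27, adjusted p = 0.082), and overlapped through ZT8 and ZT20 only. Per1 lay at 0.5, 1.2 and 8.2 rpbp in light and 4.8, 8.4 and 30.4 rpbp in dark (−1.94 ± 0.49, adjusted p = 0.143), with its ZT8 libraries inside the dark range. Per3 was as high at ZT8 (21.1 and 21.6 rpbp) as at ZT12 (22.4 and 22.6 rpbp), and its difference of −0.92 had an adjusted p of 0.612.

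Nr1d1, which encodes REV-ERBα, had a larger difference than any separated light gene. It lay at 6.3, 29.45 and 40.6 rpbp in light and 1, 2.25 and 15.1 rpbp in dark (2.33 ± 0.56, adjusted p = 0.124). The phases overlapped through ZT12 (9.4 and 15.1 rpbp) and ZT0 (6.3 and 11.9 rpbp). Its relative Nr1d2 differed by 0.75 (adjusted p = 0.543), and Rora by 0.21 (adjusted p = 0.612). The proline- and acid-rich bZIP factors Dbp, Tef and Hlf and their antagonist Nfil3 differed by 0.85, −0.23, −0.08 and −0.38 (adjusted p from 0.647 to 0.931). Dbp was lower at ZT0 than at ZT12 (−2.46) and higher at ZT8 than at ZT20 (3.55), with libraries from 2.3 to 50.5 rpbp in the light phase alone.

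Gene lists are described by their counts and medians beside those of all tested symbols, and their members named here were chosen after their values were seen. Outside the clock lists no list member passed the limma test of the phases on the deposited scale. After equalizing the medians Cyp27a1 passed it (adjusted p = 0.049). The calls below are therefore those with time points as groups on the deposited scale (2.37% of all tested symbols higher in light and 1.81% in dark). The median difference of all tested symbols was 0.05.

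In fat and carbohydrate use, calls higher in light outnumbered those in dark on the lists of fatty acid oxidation and of glucose use. Of 22 tested genes of PPARα and fatty acid oxidation, 6 were called higher in light and 0 in dark, with a median of 0.36. Vnn1, a pantetheinase gene, lay between 0.6 and 9.9 rpbp in light and between 0 and 1.4 rpbp in dark, the microsomal fatty acid hydroxylase gene Cyp4a14 had medians of 5.05 and 1.1 rpbp, and the peroxisomal thiolase gene Acaa1b had medians of 119.25 and 57.9 rpbp. Of 17 genes of glucose use and glycogen, 4 were called higher in light (Pklr, Ugp2, Gys2 and Gckr) and 1 in dark (Pfkfb3), with a median of 0.35. Pklr, the liver pyruvate kinase gene, had medians of 41.95 rpbp in light and 12.05 rpbp in dark. Of 13 tested genes of gluconeogenesis, 0 were called higher in light and 1 in dark, with 7 differences above 0 and a list median of 0.02. The called gene was Pck1, with medians of 140.05 rpbp in light and 446.8 rpbp in dark. Fatty acid synthesis had the largest median of any list with 5 or more tested members (0.50, 18 tested) and 0 calls, with 2 members at an unadjusted p under 0.05 in the phase fit, and its median was 0.08 in replicate series 1 and 0.90 in series 2.

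Lists with calls higher in dark included glucocorticoid targets and acute-phase proteins. Of 11 tested glucocorticoid targets, 3 were called higher in dark (Zbtb16, Per1 and Fkbp5) and 0 in light, with 10 of 11 differences below 0 and a median of −0.66. Fkbp5, a chaperone of the glucocorticoid receptor, had medians of 1.65 rpbp in light and 7.2 rpbp in dark. Of 16 acute-phase genes, 5 were called higher in dark (Saa1, Saa2, Saa4, Hpx and Lbp) and 0 in light, with a median of −0.51. Saa1 was highest at ZT16 and its dark libraries ran from 0 to 43.6 rpbp, and its 3 pairs differed (adjusted p = 0.00179). The pairs also differed for Saa2, Hpx and Saa4 (adjusted p = 0.00229, 0.00643 and 0.0385). Saa2 had a mean of 17.2 rpbp at ZT16 and of at most 0.4 rpbp at every other time point, and Hpx had a mean of 129.5 rpbp at ZT16 and was higher at ZT0 (50.2 rpbp) than at ZT12 (37.9 rpbp). Saa4 had means of 86.8 and 70.25 rpbp at ZT12 and ZT16 and of 16.5 rpbp at ZT20, within the light range of time point means. For Lbp, the lipopolysaccharide-binding protein gene, no difference between the pairs was detected (adjusted p = 0.694), with 2.6 to 8.6 rpbp in light and 8.4 to 16.1 rpbp in dark (−1.11 ± 0.25), and it was separated after equalizing the medians only.

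**Figure D4:**
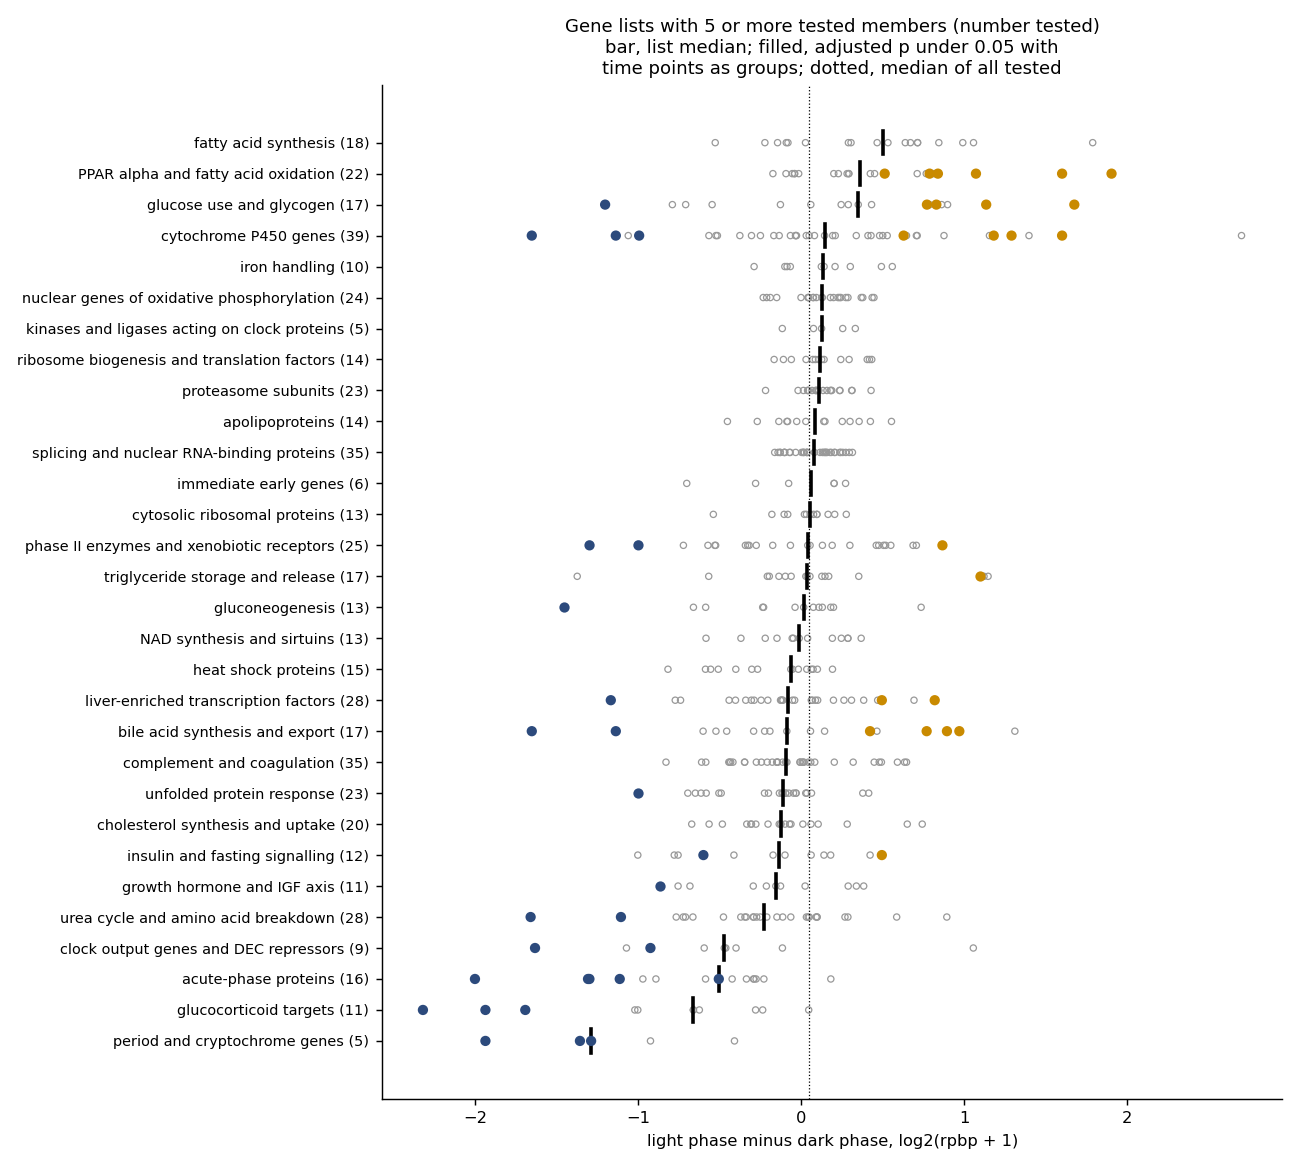
Light phase minus dark phase (log2(rpbp + 1)) for the tested members of the gene lists with 5 or more tested members, with the number tested in brackets. Bars are list medians, filled points are members called with time points as groups, and the dotted line is the median of all tested symbols (0.05). The period and cryptochrome list lies lowest, at −1.29, and fatty acid synthesis highest, at 0.50.

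Other lists held calls in both directions. Of 17 genes of bile acid synthesis and export, 4 were called higher in light, all of them transporters (Abcb4, Abcg5, Abcg8 and Slc10a1), and 2 higher in dark, both of them enzymes of synthesis (Cyp7a1 and Cyp27a1). Cyp7a1, the rate-limiting enzyme, had medians of 8.4 rpbp in light and 33.7 rpbp in dark (−1.65 ± 0.45, adjusted p = 0.167 in the phase fit). Abcg5 and Abcg8, which together form a sterol exporter, had medians of 31.4 and 18.7 rpbp in light and 11.3 and 7.9 rpbp in dark, and their 3 pairs differed (adjusted p = 0.0078 and 0.0178). Slc10a1 was called on the deposited scale only. Of 39 cytochrome P450 genes, 4 were called higher in light and 3 in dark, with a median of 0.14. Of 28 genes of the urea cycle and amino acid breakdown, 2 were called higher in dark (Asl and Bhmt) and 0 in light.

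Housekeeping lists held no calls. None of the tested members of the lists of cytosolic ribosomal proteins (13), oxidative phosphorylation (24), proteasome subunits (23) and splicing and nuclear RNA-binding proteins (35) was called, with medians from 0.06 to 0.13, close to that of all tested symbols. At an unadjusted p under 0.05 the phase fit gave 0, 1, 3 and 2 members of these lists, all higher in light, and Hnrnpc of the splicing list was separated. Of 15 heat shock genes and 23 genes of the unfolded protein response, 0 and 1 (Derl3, higher in dark) were called, and 3 and 2 were higher in dark at an unadjusted p under 0.05.

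Within each replicate series the comparison is 3 libraries against 3, where an exact two-sided test cannot give a p below 0.1, so only counts are given. In series 1, 224 symbols were separated higher in light (3.56%) and 335 in dark (5.33%), and in series 2 the counts were 479 (7.62%) and 128 (2.04%). So series 1 held more separations towards dark and series 2 more towards light. Both series separated 68 symbols higher in light (30.4% of those of series 1 and 14.2% of those of series 2) and 32 higher in dark (9.55% and 25%).

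Hepatocyte markers were abundant, with summed signals between 1341.1 and 2663.6 rpbp in light and between 1862 and 3604.6 rpbp in dark. In bulk samples a change in the number of cells of a type and a change in RNA per cell cannot be told apart. Of 11 stellate cell and fibroblast markers none reached 6 rpbp, but their summed signal did not overlap between the phases (14.9 to 17.2 rpbp in light and 18.1 to 21.6 rpbp in dark). This sum was 1 of 7 cell type sums looked at and was not tested. Its members went both ways. Lrat and Dcn had medians of 1.9 and 2.6 rpbp in light and 3.25 and 3.7 rpbp in dark. Reln and Col3a1 had medians of 4.45 and 1.5 rpbp in light and 4.3 and 1.1 rpbp in dark. The summed Kupffer cell markers ran from 27.1 to 87.2 rpbp in light and from 40.8 to 66.4 in dark. Of 5 tested 1 was called with time points as groups, Clec4f, which was higher in dark (medians 10.05 and 19.2 rpbp). In the other direction, 3 of the 5 had a higher light mean (Emr1, Cd5l and Marco, none called), and the list median was 0.17. The medians of these 3 were 4, 7.9 and 0.35 rpbp in light and 3.8, 7.85 and 0.75 rpbp in dark. Their highest values were 17.3, 23.9 and 20.5 rpbp in light and 5.1, 10 and 1.8 rpbp in dark. Emr1 and Marco thus exceeded 6 rpbp in the light phase only. Of the members that were not tested, Vsig4, C1qa, C1qb, C1qc and Timd4 had higher medians in dark and Cd68 in light. The summed sinusoidal endothelial markers ran from 24 to 46.6 rpbp in light and from 35.8 to 49.9 in dark, and of 4 tested Ehd3 alone was separated. Cholangiocyte, lymphocyte and erythroid markers summed to at most 14.6 rpbp in any library, and of the erythroid markers Slc4a1 was at 0 in all. The part of these cells in the differences of hepatocyte genes was not tested.

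Library properties were close between the phases with some exceptions. The sum of a library ranged from 118342 to 137521 rpbp in light and from 122892 to 160545 in dark, and the 20 highest symbols held 20.7% to 26.6% and 22.6% to 37.1% of it. Between the lowest and the highest of 20 bins of exon GC content the median deviation changed by −1.20 to 0.20 (log2) in light libraries and by −0.57 to 0.52 in dark ones, with medians of −0.01 and 0.27. The median exon GC content was 47% for the separated light genes, 52.3% for the dark genes and 49.8% for all tested. After removing the GC trend from each library, 30 of the 41 symbols were still separated (18 of 26 in light and 12 of 15 in dark), Cry1, Fabp1, Erbb4 and Arhgdia among them.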

How the data were processed

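Nascent-Seq was analysed in 12 mouse liver libraries, grouped by the time point and replicate in the sample labels. The members of the comparison and the gene lists were chosen with earlier results of these data known. The authors aligned the reads to mm9 (submitters' notes: CASAVA 1.7 and TopHat), kept uniquely mapped reads, and deposited an exon signal in rpbp per gene symbol (a signal scaled to a common read total). The depth behind a value is thus not in the table, and no count model was used. The deposited 24-hr Fourier fraction, its phase and its p-value were not used. Of 49409 lines, 27919 were blank and dropped.

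Symbols above 6 rpbp in at least 1 library were fitted on log2(rpbp + 1) with limma 3.58.1 (R 4.3.3), without a mean-variance trend, with Benjamini-Hochberg adjustment over all 6284. The fits used phases as groups, time points as groups, and an F-test of the 3 12-hr pairs. The scripts were tested on simulated data. Nothing says that each library was 1 animal, so p-values measure the spread between these samples. Named genes were the 15 separated symbols per direction with the largest difference (1 per locus, all if fewer) with their overlapping symbols, the core clock genes, and up to 4 called members of each list. Any other was chosen after its values were seen. Exon GC content came from GENCODE M1 for 6149 symbols (97.9%), of 20 bins. Coordinates are mm9, counted from 1. Alternatives were pseudocount 0.1, thresholds of 3 and 12 rpbp, a mean above 6 rpbp or none, 1 symbol per locus, a trend, lanes, GC and replicate terms, and time points or libraries left out. Some results are not reported here.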

Additional observations from a re-analysis of the deposited data

Results flagged for a closer look

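Among 28 separated genes that were checked, 8 of the 56 sets of 6 libraries held a library far from the other 5 of its phase, where chance flags about 1 in 20. Fabp1 reached 292.3 rpbp in ZT8 replicate 2 and Gamt reached 49.1 rpbp in ZT8 replicate 1. Fgfrl1 reached 12.1 rpbp in ZT8 replicate 1 and Scaper reached 7.4 rpbp in ZT8 replicate 2. Vps37b was low, at 1.5 rpbp, in ZT8 replicate 2, and Trp53inp2 was low, at 13.9 rpbp, in ZT0 replicate 1. In the dark phase BC025885 reached 122.1 rpbp in ZT12 replicate 1 and Smyd2 reached 8.9 rpbp in ZT12 replicate 2. Each of these values lies on its own side of the division, so it sets the size of a difference and not the separation. The difference between the 12-hr pairs was itself significant in the limma F-test for Ccrn4l (adjusted p = 0.0102), Cry1 (adjusted p = 0.0119) and Trp53inp2 (adjusted p = 0.0357).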

How the results depend on the processing

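The number of symbols called between the phases (9) depended on the filter and on the error used. It was 15 above 3 rpbp, 4 above 12 rpbp, 4 with a mean above 6 rpbp and 14 without a filter. It was 263 with time points as groups, 65 with lanes as a term and 21 after removal of the GC trend. The libraries run in 2 lanes were those of ZT8 and ZT20, so the lane term cannot be told apart from these time points. It was 172 without ZT8 and ZT20, 5 without ZT0 and ZT12, and 3 without ZT4 and ZT16. Replicate 1 alone and replicate 2 alone each gave 0, with 334 and 343 at an unadjusted p under 0.05. Leaving out 1 library gave 0 to 22 calls. With equalized medians (13) it gave 0 to 36, the highest without ZT20 replicate 2, and time points as groups gave 281, and these settings with equalized medians were chosen after seeing the data. The 56 separated symbols became 90 above 3 rpbp, 28 above 12 rpbp, 91 after removal of the GC trend, 757 without ZT8 and ZT20, 383 without ZT0 and ZT12 and 231 without ZT4 and ZT16, and 67 to 117 with 1 library left out. Fewer libraries make separation easier to reach, so these last counts must be at least as high. The 237 symbols whose pairs differed became 74 (without ZT20 replicate 1) to 487 (without ZT16 replicate 1).

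For 51 genes taken by the naming rule, 1289 of 1489 comparisons with another setting stayed on the same side of the threshold, 116 no longer passed it, 84 newly passed it and 0 called values changed sign. Of the 1289, the sign changed in 31, in 10 genes, all of them clock genes whose difference was not called, and in 0 separated genes. Samples with the same replicate number did not deviate together throughout (correlations from −0.117 to 0.32), so the numbers were not taken as pairs. With the replicate number as a block the phases gave 7 calls and the 12-hr pairs 212, and the block with removal of the GC trend gave 0 calls, with 888 at an unadjusted p under 0.05. The table holds no read counts, so the counting error of low signals could not be computed.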
